A study of Homo sapiens and Mus musculus with 18 samples.

Results

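The 10 genes described here encode transcription factors of the lateral plate mesoderm and its splanchnic layer. They are HAND1 and HAND2, GATA4, GATA5 and GATA6, FOXF1 and FOXF2, ISL1, NKX2-5 and NKX2-3. They were taken by name and not by a cut on measured values, but with earlier results of these data known. All 10 had a gene ID among the 63677 listed in the one-library files and the 56299 listed in the human table. Poly-A RNA was sequenced from cultures made from 1 human embryonic stem cell line, WA09. Every culture began with 4 days of WNT3A at 25 ng/ml and BMP4 at 100 ng/ml, which the labels name splanchnic mesoderm. MesoT, named in the series as the mesenchymal form of mesothelium, then had WNT3A at 25 ng/ml, BMP4 at 50 ng/ml and retinoic acid at 4 μM, and was collected at day 18 or day 22. MesoT FCS was MesoT passaged to passage 4 in 10% fetal bovine serum with FGF2 at 8 ng/ml. MLC (mesothelium-like cells, the epithelial form) were splanchnic mesoderm replated in medium without FGF2 or Activin A, with retinoic acid at 4 μM and SB431542, an inhibitor of the TGF-beta type I receptor, at 20 μM, for 18 days in all. MesoT-derived MLC were MesoT replated into that same medium. Smooth muscle was splanchnic mesoderm kept in culture to between day 16 and day 18, and its medium is not described further. Each group had 2 libraries, except smooth muscle with 1. Nothing in the labels says that the 2 libraries of a group came from separate cultures, so p-values measure only the spread between these libraries.

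HAND1 and HAND2 are basic helix-loop-helix factors that bind E-boxes as dimers with E proteins. GATA4, GATA5 and GATA6 are zinc finger factors that bind GATA sites together with FOG cofactors, and are known for roles in heart, endoderm and the coelomic lining. FOXF1 and FOXF2 are forkhead factors of splanchnic mesenchyme and are known targets of Hedgehog signalling. ISL1, a LIM homeodomain factor, marks second heart field progenitors. NKX2-5 is a homeodomain factor of cardiac progenitors, and NKX2-3 is its relative in gut and spleen mesenchyme. BMP signalling is known to act upstream of HAND and GATA genes in lateral mesoderm.

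Values are CPM after TMM scaling (counts of a gene per 1000000 counts of the library), computed apart in 2 sets. A gene is called where the edgeR p, adjusted over all genes tested, was under 0.05. The one-library files hold smooth muscle, MLC, MesoT FCS and MesoT day 18. The human table holds MesoT day 18, MesoT day 22 and MesoT-derived MLC. The MesoT day 18 samples are in both sets. TMM-scaled library sizes ran from 17907260 to 75657210 counts in the one-library files, where both MLC libraries were the deepest, and from 27056640 to 30003380 in the table. CPM does not correct for gene length, so levels are compared within a gene and not between genes. In these bulk libraries, fewer cells of a type and less RNA per cell cannot be told apart. The mesothelial factor WT1 was at 148 CPM or more in the 4 libraries of both MLC groups and between 25.9 and 94.4 CPM in MesoT at both days. In MesoT FCS WT1 was at 5.58 and 3.41 CPM. The library labelled smooth muscle had 1 count of WT1, and had the basal epidermal keratin KRT5 at 870 CPM, against at most 0.945 CPM in the other libraries. WT1 did not stand for the other mesothelial markers. Summed over 8 of them, WT1 included, smooth muscle had 1398 CPM and MesoT FCS 1151 and 690 CPM. MLC had 1151 and 1031 CPM of them, and MesoT day 18 of the same files had 458 and 485 CPM. In the table MesoT-derived MLC had 2037 and 2739 CPM, and MesoT between 494 and 846 CPM.

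RefSeq promoter windows on GRCh38.p14 were found for 6 of the 10 genes. GATA4, GATA5, FOXF1 and NKX2-5 had no window. The 250 bases before the start are shown for 4 of the 6. HAND1 and HAND2 are paralogs that differed in MesoT FCS, FOXF2 was highest in MLC, and ISL1 was the member called in MesoT-derived MLC. Each is given 5′ to 3′ on the gene's own strand. Capitals mark the GATA core GATAA or its reverse complement TTATC, and the E-box CANNTG, at which HAND dimers and other helix-loop-helix factors can bind.
HAND1, chr5:154478228-154478477, minus strand: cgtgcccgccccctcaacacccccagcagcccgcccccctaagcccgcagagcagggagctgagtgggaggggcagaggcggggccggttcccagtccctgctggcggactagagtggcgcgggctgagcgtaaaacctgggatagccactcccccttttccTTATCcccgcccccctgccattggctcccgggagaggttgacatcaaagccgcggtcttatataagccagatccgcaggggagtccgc
HAND2, chr4:173530230-173530479, minus strand: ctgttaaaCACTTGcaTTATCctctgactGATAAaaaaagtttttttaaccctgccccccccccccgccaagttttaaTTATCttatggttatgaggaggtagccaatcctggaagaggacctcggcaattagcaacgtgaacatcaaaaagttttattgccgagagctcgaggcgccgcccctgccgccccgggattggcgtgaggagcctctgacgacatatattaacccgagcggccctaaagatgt
FOXF2, chr6:1389326-1389575, plus strand: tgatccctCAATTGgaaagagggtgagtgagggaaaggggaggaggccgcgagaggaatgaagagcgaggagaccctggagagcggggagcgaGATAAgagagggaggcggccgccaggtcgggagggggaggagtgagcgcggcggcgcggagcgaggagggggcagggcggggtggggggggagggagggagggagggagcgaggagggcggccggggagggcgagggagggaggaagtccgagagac
ISL1, chr5:51383198-51383447, plus strand: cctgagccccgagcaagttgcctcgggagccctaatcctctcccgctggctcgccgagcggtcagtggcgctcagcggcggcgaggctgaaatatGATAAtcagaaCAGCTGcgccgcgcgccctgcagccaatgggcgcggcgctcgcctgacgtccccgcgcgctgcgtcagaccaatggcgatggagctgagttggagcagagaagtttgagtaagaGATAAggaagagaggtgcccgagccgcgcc
The HAND1 window held 1 GATA core, 88 bases before the start, and no E-box. The HAND2 window held 3 GATA cores, at 234, 221 and 172 bases before the start. It also held 1 E-box at 242 bases, which overlaps a match to the NK2 core AAGTG at the same position and the forkhead core TAAACA at 246 bases. The FOXF2 window held a GATA core at 157 bases and an E-box at 242 bases. The ISL1 window held GATA cores at 155 and 30 bases and an E-box at 144 bases. Both strands were searched. Over all 35116 windows of this length, 20.4% held GATAA, 61.8% CANNTG, 37.6% AAGTG and 11% TAAACA. The GC content was 67.2% for HAND1, 49.6% for HAND2, 70.8% for FOXF2 and 65.2% for ISL1, beside a median of 58% over all windows. A match describes letters only.

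**Figure D1:**
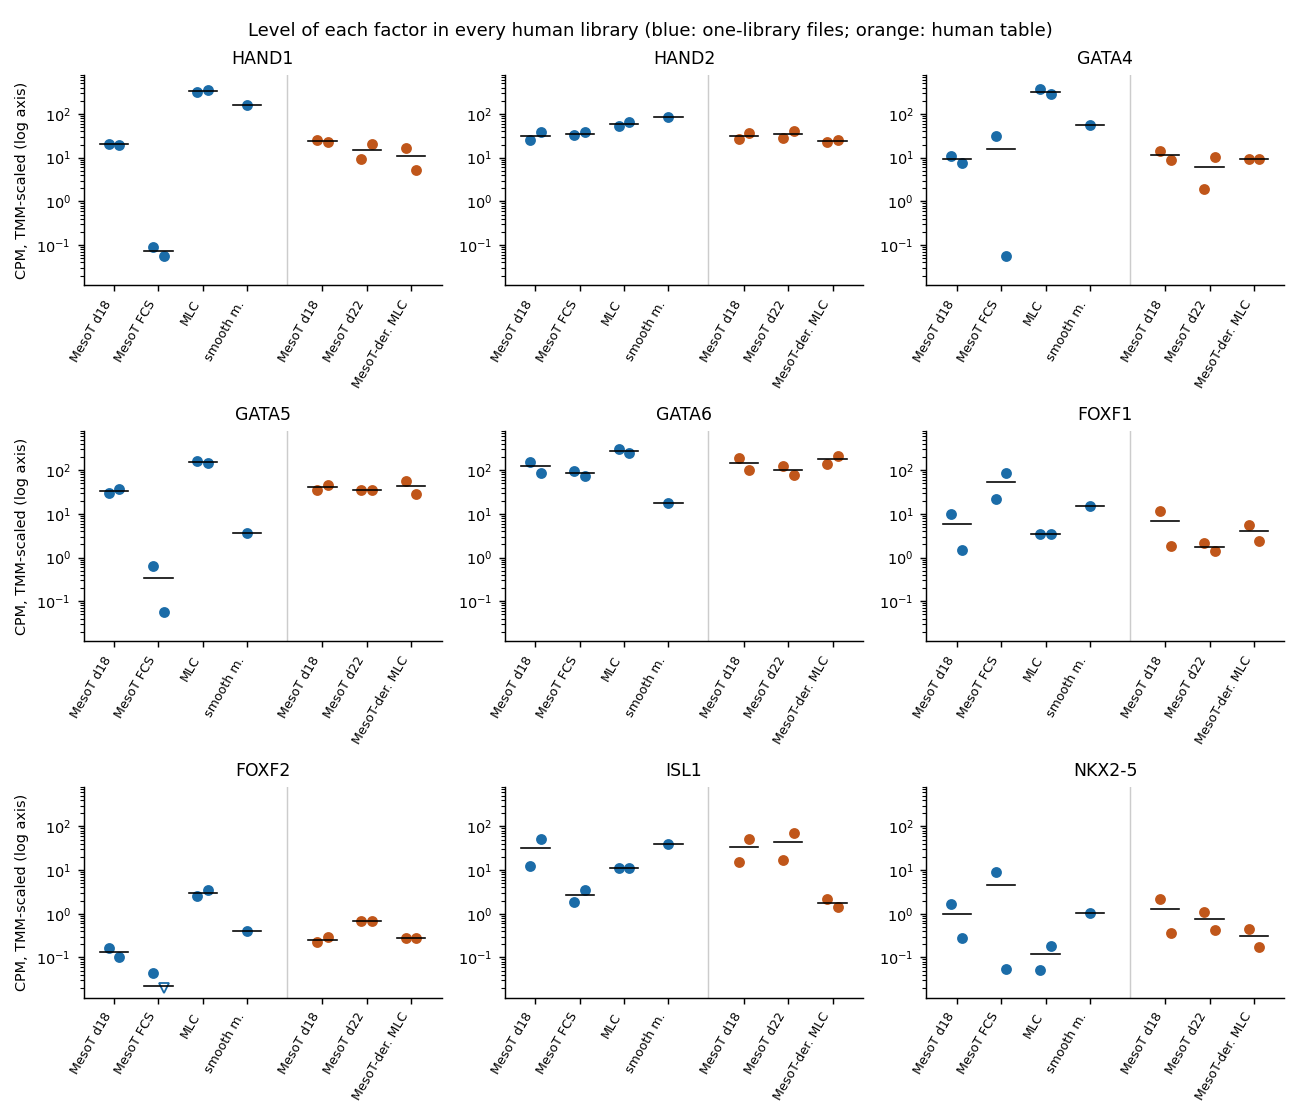
CPM (log axis) of 9 of the 10 factors in every human library, with each point 1 library and each line the mean of a group; blue points are the one-library files, orange points the human table, and the open triangle is 0 counts of FOXF2. HAND1 and GATA5 were high in MLC and near the floor in MesoT FCS, while HAND2 lay between 22.9 and 84.2 CPM in every library.

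HAND1 was highest in MLC and nearly absent from the counts in MesoT FCS. In the one-library files it was at 20.2 and 19.9 CPM in MesoT day 18, at 319 and 358 CPM in MLC, and at 160 CPM in smooth muscle. In MesoT FCS it was at 0.0893 and 0.0558 CPM, which are 2 counts and 1 count. No groups overlapped. HAND1 rose in MLC over MesoT day 18 by a log2 fold change of 4.07 ± 0.18 (SE, edgeR adjusted p = 0.00028), and in smooth muscle by 2.99 ± 0.19 (adjusted p = 0.00671). Smooth muscle was below MLC by a log2 change of -1.08 ± 0.21 (adjusted p = 0.0125), a call lost without either MLC library (adjusted p = 0.0646 and 0.0846). HAND1 fell in MesoT FCS against MesoT day 18 (adjusted p = 0.0013). With 3 counts over both libraries, the MesoT FCS level was 0.000220 of the MLC level (95% exact counting interval 4.54e-05 to 0.000644) and 0.000465 of the smooth muscle level (9.59e-05 to 0.00136). The order was therefore MLC, smooth muscle, MesoT day 18 and MesoT FCS, and each step passed the test. In the table, HAND1 was at 24.8 and 22.4 CPM in MesoT day 18, at 9.37 and 20.9 CPM in day 22, and at 16.4 and 5.17 CPM in MesoT-derived MLC. Day 22 and MesoT-derived MLC overlapped and were both below day 18, but neither day 22 (log2 change -0.64 ± 0.60) nor MesoT-derived MLC (-0.81 ± 0.54, adjusted p = 0.353) passed the test.

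HAND2 did not follow its paralog in MesoT FCS. It was at 24.7 and 37.9 CPM in MesoT day 18, 32.3 and 37.9 CPM in MesoT FCS, 52.1 and 66.4 CPM in MLC and 84.2 CPM in smooth muscle. The MesoT FCS libraries lay within or at the edge of the day 18 range, with a log2 difference of 0.16 ± 0.26 (adjusted p = 0.648). HAND2 rose by 0.92 ± 0.26 in MLC over MesoT day 18 (adjusted p = 0.0482) and by 1.43 ± 0.30 in smooth muscle (adjusted p = 0.0436). The MLC call was lost without either MLC library (adjusted p = 0.132 and 0.259) without the first MesoT day 18 library, and with only those 2 groups fitted (adjusted p = 0.0915). Smooth muscle and MLC did not pass the test against each other (0.51 ± 0.31, adjusted p = 0.238), nor did MLC against MesoT FCS (0.76 ± 0.26, adjusted p = 0.0519). The latter passed with RLE scaling (adjusted p = 0.0461), no filter on low counts (0.0302), DESeq2 (0.0277) and only those 2 groups fitted (adjusted p = 0.013). In the table HAND2 was at 26.9 and 36.1 CPM in day 18, 28.2 and 41.1 CPM in day 22, and 22.9 and 25.7 CPM in MesoT-derived MLC. Both MesoT-derived MLC libraries were under all 4 MesoT columns, with a log2 change of -0.44 ± 0.23 that did not pass (adjusted p = 0.243).

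GATA4 was far above the other groups in MLC. It was at 372 and 282 CPM there, at 11.2 and 7.66 CPM in MesoT day 18 and at 55.2 CPM in smooth muscle. The 2 MesoT FCS libraries held 691 counts and 1 count, or 30.9 and 0.0558 CPM, and lay on both sides of MesoT day 18. The log2 change of MLC over MesoT day 18 was 5.12 ± 1.72 and missed the threshold in the fit over all 4 groups (adjusted p = 0.0795). It passed when only those 2 groups were fitted (5.06 ± 0.29, adjusted p = 0.00237), as well as with no filter on low counts (adjusted p = 0.0155), DESeq2 (adjusted p = 0.0399) and limma voom (adjusted p = 0.0223). MesoT FCS against MesoT day 18 gave 0.72 ± 1.48, which became -7.32 without the first MesoT FCS library (adjusted p = 0.014) and 1.71 without the second (adjusted p = 0.0374). The first MesoT FCS library also had more cardiomyocyte marker RNA, summed over 8 genes, than the second, at 26.7 against 1.4 CPM. The part of that in the GATA4 counts was not tested. In the table GATA4 was at 14.3 and 9.06 CPM in day 18, 1.93 and 10.4 CPM in day 22 and 9.12 and 9.21 CPM in MesoT-derived MLC. The 3 groups overlapped.

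GATA5 had the order of HAND1 in the one-library files, except that smooth muscle was below MesoT day 18. It was at 29.6 and 37.5 CPM in MesoT day 18, at 159 and 144 CPM in MLC, at 0.625 and 0.0558 CPM in MesoT FCS (14 counts and 1 count) and at 3.62 CPM in smooth muscle. No groups overlapped. GATA5 rose in MLC over MesoT day 18 by 2.17 ± 0.45 on the log2 scale (adjusted p = 0.0202), a call lost without either MLC library (adjusted p = 0.139 and 0.121). It fell by 6.52 ± 0.62 in MesoT FCS (adjusted p = 0.00389) and by 3.21 ± 0.65 in smooth muscle (adjusted p = 0.0396). The size of the change in MesoT FCS rests on few counts, and was -9.15 without the first and -5.74 without the second MesoT FCS library, each past the test. The step from smooth muscle down to MesoT FCS also passed (3.31 ± 0.68, adjusted p = 0.0266). In the table GATA5 was at 35.7 and 45.3 CPM in day 18, 35.2 and 35.5 CPM in day 22 and 57.1 and 28.2 CPM in MesoT-derived MLC. MesoT-derived MLC lay on both sides of MesoT, with a log2 change of 0.17 ± 0.29 (adjusted p = 0.721).

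GATA6 moved less than GATA5 and kept most of its level in MesoT FCS. It was at 156 and 88.0 CPM in MesoT day 18, 97.7 and 74.2 CPM in MesoT FCS and 300.3 and 249 CPM in MLC, while smooth muscle had 17.4 CPM. MLC were above and smooth muscle below every other library. GATA6 rose by 1.17 ± 0.31 in MLC over MesoT day 18 (adjusted p = 0.0429), a call lost without either MLC library (adjusted p = 0.214 and 0.143), without the second MesoT day 18 library, or with only those 2 groups fitted (adjusted p = 0.0534). It fell by 2.81 ± 0.44 in smooth muscle (adjusted p = 0.0255). In MesoT FCS the change was -0.50 ± 0.31 (adjusted p = 0.259). In the table GATA6 was at 192 and 102 CPM in day 18, 124 and 79.1 CPM in day 22 and 140.0 and 216 CPM in MesoT-derived MLC. These overlapped, with a log2 change of 0.54 ± 0.34 against MesoT (adjusted p = 0.325).

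FOXF1 had its highest level of the one-library files in MesoT FCS. It was at 21.3 and 85.2 CPM in MesoT FCS, 10.2 and 1.5 CPM in MesoT day 18, 3.48 and 3.48 CPM in MLC and 14.8 CPM in smooth muscle. Both MesoT FCS libraries were above the rest, while the day 18 pair spanned MLC. The log2 change in MesoT FCS over MesoT day 18 was 3.19 ± 1.00 and did not pass (adjusted p = 0.0616), although it passed with DESeq2 (adjusted p = 0.00293), with no filter on low counts (adjusted p = 0.0136), with the day 18 counts of the table (adjusted p = 0.0287) and without the first MesoT day 18 library (5.10, adjusted p = 0.0207). MLC were below MesoT FCS by a log2 change of -3.93 ± 1.03 (adjusted p = 0.0235), a call lost without either MLC library or the second MesoT FCS library (-2.62, adjusted p = 0.0941). Summed smooth muscle markers (6 genes) also differed, at 6062 and 1554 CPM in MesoT FCS, 1627 and 267 CPM in MesoT day 18 and 137 and 119 CPM in MLC. The library labelled smooth muscle had 1105 CPM of them, below both MesoT FCS libraries and the first day 18 library. Their part in FOXF1 was not tested. In the table FOXF1 was at 11.6 and 1.80 CPM in day 18, 2.17 and 1.38 CPM in day 22 and 5.57 and 2.43 CPM in MesoT-derived MLC, with a log2 change of 0.21 ± 0.74 against MesoT.

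FOXF2, the paralog of FOXF1, had its highest level in MLC. It had 191 and 248 counts there (2.52 and 3.53 CPM), 5 and 3 counts in MesoT day 18, 1 and 0 in MesoT FCS and 10 in smooth muscle. FOXF2 rose in MLC over MesoT day 18 by 4.48 ± 0.65 (adjusted p = 0.00622), and the call was lost without the second MLC library (adjusted p = 0.0622). Smooth muscle was below MLC by a log2 change of -2.89 ± 0.78 (adjusted p = 0.0349), a call lost without either MLC library. The MesoT FCS level was 0.00824 of the MLC level (95% exact counting interval 0.000208 to 0.0462) and 0.187 of the MesoT day 18 level (0.00421 to 1.39). The last interval includes equal levels, and the difference from day 18 did not pass (adjusted p = 0.151). It passed with the table's counts of the same day 18 samples (adjusted p = 0.0466), which held 6 and 8 counts in place of 5 and 3. In the table FOXF2 was at 0.222 and 0.293 CPM in day 18, 0.700 and 0.690 CPM in day 22 and 0.273 and 0.274 CPM in MesoT-derived MLC. Day 22 was above day 18 in both columns (log2 change 1.42 ± 0.43) but did not pass after adjustment over all genes (adjusted p = 1).

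ISL1 was split by library within MesoT. It was at 12.6 and 50.2 CPM in MesoT day 18 of the one-library files, and at 15.2 and 51.9 CPM in day 18 and 16.7 and 70.6 CPM in day 22 of the table. The second library was the higher at both days. FOXF1 and NKX2-5 had the opposite order, with the first library higher at both days. ISL1 was at 1.88 and 3.57 CPM in MesoT FCS, 11.4 and 11 CPM in MLC and 39.3 CPM in smooth muscle. It fell by 3.53 ± 0.71 in MesoT FCS against MesoT day 18 (adjusted p = 0.0191), a call lost without either MesoT FCS library, with limma voom (adjusted p = 0.0578) and with only those 2 groups fitted (adjusted p = 0.0502). MLC against MesoT day 18 gave -1.49 ± 0.64 (adjusted p = 0.145), which passed without the first day 18 library (-2.07, adjusted p = 0.0157). In MesoT-derived MLC ISL1 was at 2.19 and 1.4 CPM, under all 4 MesoT columns. It fell by 4.41 ± 0.90 against the mean of both MesoT days (adjusted p = 0.0381). That call was lost without either MesoT-derived MLC column (adjusted p = 0.162 and 0.234), without either day 22 column, with limma voom (adjusted p = 0.0679) and against either day alone.

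NKX2-5 was low in nearly every library. It was at 1.71 and 0.273 CPM in MesoT day 18, 0.0529 and 0.185 CPM in MLC and 1.02 CPM in smooth muscle. The 2 MesoT FCS libraries held 202 counts and 1 count (9.02 and 0.0558 CPM). They were split in the same direction as for GATA4, with the first library the higher. No comparison of NKX2-5 passed the test in the fit over all groups. MLC against MesoT FCS (-5.23 ± 1.98, adjusted p = 0.0709) passed with DESeq2 (adjusted p = 0.00771), with no filter on low counts (adjusted p = 0.0215) and without the second MesoT FCS library (adjusted p = 0.0191). Smooth muscle against MLC passed with only those 2 groups fitted (adjusted p = 0.0104). In MesoT FCS against MesoT day 18 the log2 change was 2.2 ± 1.71, and it became -4.08 without the first MesoT FCS library. In the table NKX2-5 was at 2.14 and 0.367 CPM in day 18, 1.10 and 0.436 CPM in day 22 and 0.444 and 0.171 CPM in MesoT-derived MLC. NKX2-3 had 2 counts in smooth muscle and 0 in each other library. It was left out of the tests by the filter on low counts, and 0 counts allows up to 3 counts per library, or at most 0.168 CPM.

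**Figure D2:**
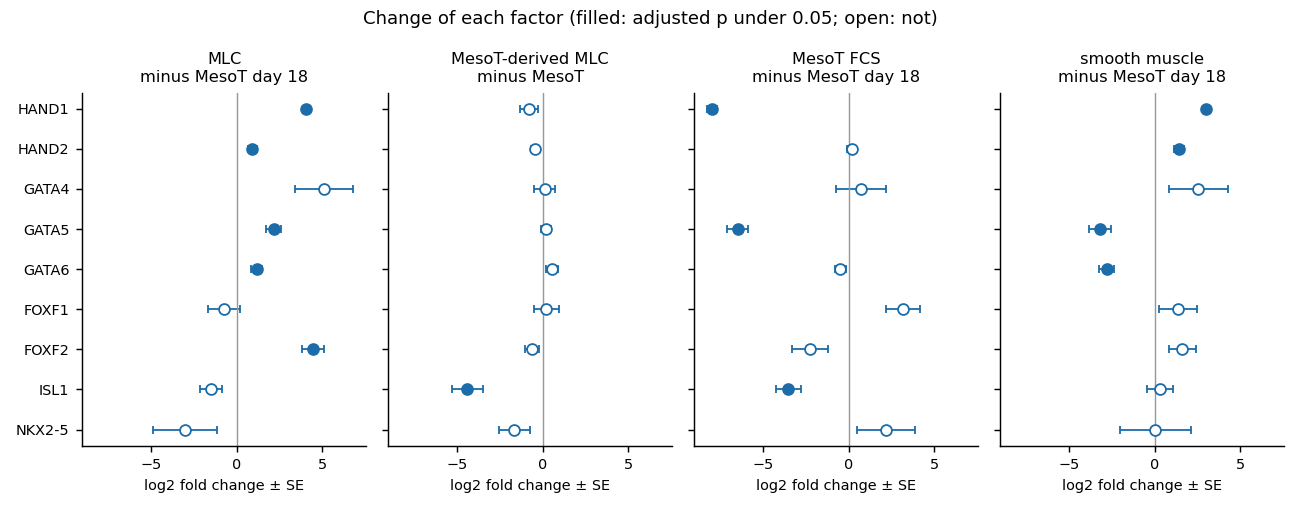
Log2 fold change of 9 factors with its SE in 4 comparisons, filled where the edgeR adjusted p was under 0.05. In MLC against MesoT day 18 the points of HAND1, HAND2, GATA5, GATA6 and FOXF2 are filled to the right of 0, whereas in MesoT-derived MLC against MesoT only ISL1 is filled, to the left. HAND1 and FOXF2 in MesoT FCS rest on 3 counts and 1 count, so the size of those fitted changes is not a measurement.

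Across the comparisons, 9 of the 10 members were tested in each. They passed the filter on low counts in some cases through the group where they were high, so counts over them are a description. In MLC against MesoT day 18, 5 of 9 were higher and 0 lower, beside 24.6% of all genes called in either direction, 7.83% called higher and 16.8% lower. Their median log2 change was 1.17, beside -0.03 over all genes. In MesoT FCS against MesoT day 18, 0 were higher and 3 lower (HAND1, GATA5 and ISL1), where 27.3% of genes were called, 13.0% higher and 14.4% lower. In MLC against MesoT FCS, 5 were higher (HAND1, GATA5, GATA6, FOXF2 and ISL1) and FOXF1 was lower, where 48.9% of genes were called, 22.6% higher and 26.3% lower. Smooth muscle against MesoT day 18 had 2 higher (HAND1 and HAND2) and 2 lower (GATA5 and GATA6), where 8.67% were called, 5.08% higher and 3.58% lower. Smooth muscle against MesoT FCS had 4 higher (HAND1, HAND2, GATA5 and ISL1) and GATA6 lower, where 17.9% were called, 10.3% higher and 7.57% lower. Smooth muscle against MLC had 0 higher and 4 lower (HAND1, GATA5, GATA6 and FOXF2), where 34.3% were called, 21.3% higher and 13.0% lower. These comparisons share libraries, so their counts are not independent. Smooth muscle had 1 library, whose spread was taken from the other groups in the fit. With only the 2 groups of a comparison in the fit, 0 members were called against MesoT day 18 or MesoT FCS and 9 against MLC. Over all genes those fits called 0 of 21944 against MesoT day 18 and 0 of 19915 against MesoT FCS. Against MLC 7104 of 22740 genes were called higher and 7028 lower. The 0 and the 9 therefore go with the number of all genes called and are not a result about the members.

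In MesoT day 22 against day 18 no member was called, where edgeR called 0% of all genes, as did DESeq2 and limma voom. At an unadjusted p under 0.05 there was 1 member, FOXF2, and 171 genes in all (0.766%). In MesoT-derived MLC against MesoT, ISL1 was the 1 member called and it was lower, where 9.94% of genes were called, 6.63% higher and 3.32% lower. The members' median log2 change was -0.44, beside -0.05 over all genes.

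Most of these factors were higher in MLC made directly from splanchnic mesoderm than in MLC made from MesoT. MLC had HAND1 at 319 and 358 CPM, while MesoT-derived MLC had 16.4 and 5.17 CPM, and GATA4 was at 372 and 282 against 9.12 and 9.21 CPM, each scaled within its own set. MLC were tested against MesoT-derived MLC in 1 joint fit over the gene IDs in both sets, a comparison added after values were seen. In it 7 of 9 members were higher in MLC and 0 lower, where 41.7% of genes were called, 16.3% higher and 25.4% lower. The log2 differences were 5.38 ± 0.59 for HAND1 (adjusted p = 0.000559), 1.69 ± 0.27 for HAND2, 5.56 ± 1.61 for GATA4, 2.23 ± 0.45 for GATA5, 1.02 ± 0.35 for GATA6, 3.85 ± 0.49 for FOXF2 and 3.04 ± 0.83 for ISL1. The set of files and the route cannot be told apart in that fit. The MesoT day 18 samples were counted in both sets, and for 8 members the values of the sets differed by less than 0.5 log2 in each replicate, while FOXF2 and NKX2-3 had too few counts for this. A fit with the set as a term, in which those samples enter from both sets, therefore compared each route with day 18 of its own set. It counts each of those 2 samples as 2 libraries, so its SEs and p-values are too small. The difference between routes then was 5.31 ± 0.71 for HAND1 (adjusted p = 0.00294) and 4.50 ± 0.73 for FOXF2 (adjusted p = 0.00704). HAND2 (1.41 ± 0.39, adjusted p = 0.0553), GATA5 (2.21 ± 0.63, adjusted p = 0.059), GATA4 (5.56 ± 1.97, adjusted p = 0.117), ISL1 (2.86 ± 1.21, adjusted p = 0.179) and GATA6 (0.99 ± 0.55, adjusted p = 0.301) did not pass there. The calls of GATA4, GATA6 and ISL1 in the joint fit were also lost without any 1 of the 4 MLC libraries.

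**Figure D3:**
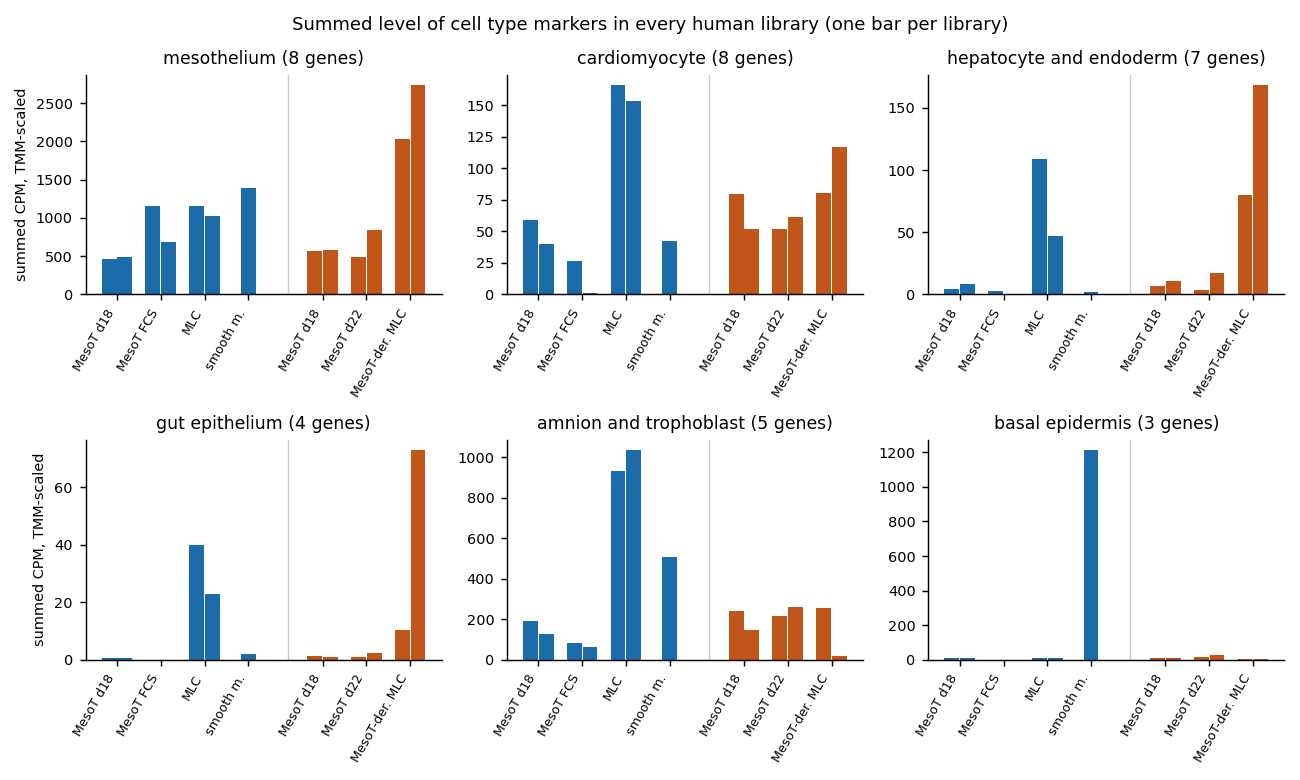
Summed CPM of marker genes of 6 cell types, each bar 1 library, blue for the one-library files and orange for the human table. Amnion and trophoblast markers stand highest in MLC, hepatocyte and endoderm markers in MLC and MesoT-derived MLC, and basal epidermal markers at 1212 CPM in smooth muscle.

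Markers of other cell types moved with these groups. The 5 amnion and trophoblast markers (GABRP, VTCN1, TFAP2A, GATA3 and CGA; ISL1, a member, was left out) summed to 931 and 1035 CPM in MLC, 191 and 125 CPM in MesoT day 18, 80.3 and 61.0 CPM in MesoT FCS and 508 CPM in smooth muscle. In that set HAND1 also had its highest level in MLC and its lowest in MesoT FCS. In MLC over MesoT day 18, 3 of these 5 markers rose, with GABRP at 3.57 ± 0.25 and VTCN1 at 4.15 ± 0.26. The list did not move as 1, since CGA had a lower fitted level in MLC than in MesoT day 18. In MesoT FCS against MesoT day 18, GABRP, VTCN1 and GATA3 fell, TFAP2A rose (1.36 ± 0.39) and CGA (-5.87 ± 2.13) did not pass. The 8 cardiomyocyte markers summed to 166 and 153 CPM in MLC and 59.2 and 39.9 CPM in MesoT day 18, and the calcium channel gene RYR2 rose (2.23 ± 0.50), while NPPA fell and the sarcomeric myosin MYH7 was at 0 counts in all of these. The 7 hepatocyte and endoderm markers summed to 109 and 46.6 CPM in MLC against 4.67 and 8.68 CPM in MesoT day 18, and 4 of the 6 tested rose (AFP, APOB, TTR and HNF4A). AFP, the fetal liver serum protein, carried most of the sum, at 84.6 and 34.2 CPM in MLC. The endoderm factors FOXA2 (7 counts and 1 count) and SOX17 (3 counts and 0) were near the floor there. In MesoT-derived MLC the same endoderm list stood at 80.3 and 168 CPM. GATA4 was at 9.12 and 9.21 CPM in those libraries and GATA6 at 140.0 and 216 CPM. Neither passed the test against MesoT. Gut epithelial markers (4 genes) were at 39.8 and 22.8 CPM in MLC and 10.5 and 72.8 CPM in MesoT-derived MLC. Amnion and trophoblast markers were at 255 and 18.1 CPM in MesoT-derived MLC, where HAND1 was at 16.4 and 5.17 CPM. In MesoT day 18 of the human table they were at 240 and 149 CPM, with HAND1 at 24.8 and 22.4 CPM. In day 22 they were at 214 and 259 CPM, with HAND1 at 9.37 and 20.9 CPM. The part of any of these lists in the levels of the 10 factors was not tested.

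**Figure D4:**
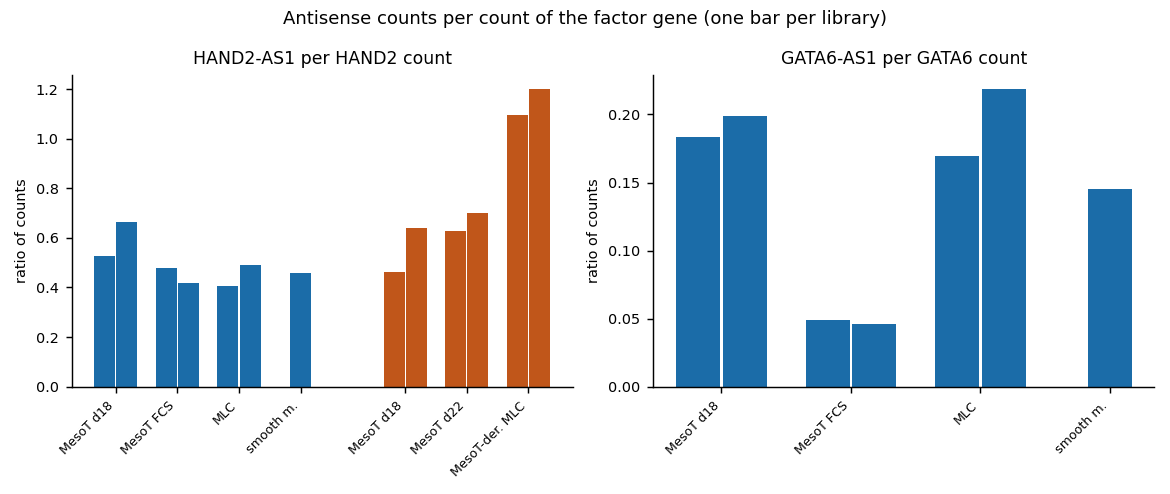
Counts of HAND2-AS1 per count of HAND2 (left, both sets) and of GATA6-AS1 per count of GATA6 (right, one-library files), each bar 1 library. The HAND2-AS1 ratio was above 1 only in MesoT-derived MLC (orange), and the GATA6-AS1 ratio was lowest in MesoT FCS.

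Non-coding neighbours of the factors followed them in part. HAND2-AS1 starts 229 bases from HAND2 on the opposite strand in 1 of its RefSeq windows, and GATA6-AS1 starts 621 bases from GATA6. In another window HAND2-AS1 starts 1629 bases away, on the side into which HAND2 is transcribed, so these transcripts can overlap. No source names a strand setting for the counts, so reads in an overlap of opposite strands cannot be told apart and these values are uncertain. There were between 0.405 and 0.665 counts of HAND2-AS1 per count of HAND2 in the one-library files and between 0.464 and 0.700 in MesoT of the table. In MesoT-derived MLC the ratio was 1.10 and 1.20, above all other libraries. The difference in ratio was not tested. GATA6-AS1 counts per GATA6 count were 0.184 and 0.199 in MesoT day 18, 0.170 and 0.218 in MLC, 0.145 in smooth muscle and 0.0489 and 0.0459 in MesoT FCS. GATA6-AS1 fell by 2.49 ± 0.32 in MesoT FCS (adjusted p = 0.0067), where GATA6 gave -0.50 ± 0.31. It rose by 1.19 ± 0.29 in MLC and fell by 3.19 ± 0.43 in smooth muscle, where GATA6 gave 1.17 ± 0.31 and -2.81 ± 0.44. FENDRR, the divergent neighbour of FOXF1, had 33 and 504 counts in MesoT FCS and between 4 and 41 in the other libraries of its set, and rose over MesoT day 18 by 5.63 ± 1.51 (adjusted p = 0.0405). The second MesoT FCS library was the higher for both FENDRR and FOXF1. ISL1-DT fell with ISL1 in MesoT-derived MLC, by 2.94 ± 0.57 (adjusted p = 0.0361).

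Partners and relatives of the factors came from lists that were written with earlier results of these data known. Their counts stand beside the shares of all genes called, which were 7.83% higher and 16.8% lower in MLC, 13.0% and 14.4% in MesoT FCS, and 6.63% and 3.32% in MesoT-derived MLC. Several counts here and in the signalling lists lie near those shares. In MLC against MesoT day 18, 2 of 7 GATA and FOG cofactor genes tested were higher and 1 lower, and ZFPM2, the FOG2 cofactor of GATA4, rose by 1.36 ± 0.26. In MesoT FCS 0 were higher and 3 lower. Of 10 E proteins, ID proteins and related factors, 1 was higher and 0 lower in MLC. In MesoT FCS 1 was higher and 4 lower, among them ID1 (-1.78 ± 0.27) and ID3 (-1.72 ± 0.30), inhibitors of E proteins and targets of BMP, and TCF21 (-4.83 ± 0.85), a factor of coelomic mesenchyme. Of 20 cardiac and splanchnic partner factors, 2 were higher and 3 lower in MLC, and the 3 lower ones are not named here. In MesoT FCS genes of this list were called in both directions. By smallest p, TBX3 (-1.18 ± 0.20) and IRX3 (-5.99 ± 1.04) fell there, and MEF2D (1.05 ± 0.21) and NR2F2 (1.84 ± 0.38) rose. TBX5, a T-box partner of GATA4, was at 101 and 87.6 CPM in MLC against 3.06 and 6.80 CPM in MesoT day 18 and rose by 4.26 ± 0.41. TBX18, a factor of epicardium and sinus venosus, was at 220 and 220 CPM against 24.7 and 14.2 CPM and rose by 3.50 ± 0.87. TBX5 was at 0 counts in smooth muscle. In MesoT-derived MLC TBX5 rose by 1.32 ± 0.26, to 18.1 and 17.0 CPM. Of 8 NK2 and LIM homeodomain relatives, 1 was higher and 1 lower in MLC, and 1 was higher and 0 lower in MesoT FCS. The list of somatic lateral plate and limb factors had 0 of 7 called in MLC. In MesoT FCS 5 of 7 were lower, among them MSX2 (-4.58 ± 0.45), EMX2 and TBX4. PRRX1 (2.22 ± 0.92) and PRRX2 (0.60 ± 0.75) of that list had positive changes there and did not pass.

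Of 17 BMP pathway genes, 3 were higher and 3 lower in MLC against MesoT day 18, with a median log2 change of 0.05 beside -0.03 over all genes. The receptor BMPR1A (1.00 ± 0.15) and the signal transducer SMAD9 (1.71 ± 0.19) rose, and the ligand BMP2 (-3.71 ± 0.65) and the antagonist GREM1 (-4.52 ± 0.35) fell. In MesoT FCS 1 was higher and 9 lower. The 1 was GREM1, at 317 and 231 CPM against 10.5 and 9.26 CPM (4.79 ± 0.33), and SMAD9 (-2.10 ± 0.19) was among the 9. MesoT FCS had BMP4 in its earlier MesoT stage, and the serum medium itself lists none. Serum, FGF2, passage and the end of added BMP4 therefore cannot be told apart. In MesoT-derived MLC against MesoT 1 of 17 was higher and 4 lower: BMP4 rose (1.46 ± 0.23) and SMAD9 fell (-1.92 ± 0.26), and the pseudoreceptor BAMBI fell (-3.47 ± 0.40). Of 13 Hedgehog pathway genes, 1 was higher and 1 lower in MLC, 0 higher and 3 lower in MesoT FCS, and 4 higher and 0 lower in MesoT-derived MLC. CDON, a Hedgehog co-receptor, rose in MLC (2.40 ± 0.39) and in MesoT-derived MLC (2.52 ± 0.20) and fell in MesoT FCS (-2.61 ± 0.40). The Hedgehog target HHIP rose in MesoT-derived MLC (3.42 ± 0.54), to 42.0 and 194 CPM. FOXF1 and FOXF2 gave 0.21 ± 0.74 and -0.62 ± 0.39 there. The part of Hedgehog signalling in their levels was not tested.

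Among 10059 genes whose mean log2 CPM reached 3 in both sets, the genes most like each factor were ranked by the lower of its 2 Pearson correlations of log2 CPM, over 7 libraries and over 6 columns. Libraries of a group, the day 18 samples and depth are shared by the points. Taking the top of 10059 genes over so few points itself favours high values, and no correlation was tested. For HAND1 the closest were CCDC174 (0.945), ARID3B (0.929) and BMF (0.909). For HAND2 they were ZNF143 (0.905) and STOM (0.876), for GATA5 PTP4A3 (0.925) and KBTBD7 (0.922), and for GATA6 GTF2H1 (0.967) and ACIN1 (0.965). FOXF1 was closest to SLC35B2 (0.955), ISL1 to TBC1D32 (0.956) and GATA4 to TSPAN15 (0.863). FOXF2, NKX2-5 and NKX2-3 were too low for the ranking.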

How the data were processed

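RNA from 11 human samples in 6 groups was analysed. The values deposited by the authors are whole-number counts per Ensembl gene ID, in 7 files of 1 library and in 1 table of 6 columns, with the MesoT day 18 samples in both. The submitters' processing notes list hg19 as the build and name featureCounts, Subread 1.4.2, Bowtie2 2.2.9 and TopHat2 2.0.13 without saying what each did. The strand setting and the annotation release: not given in the sources used here. Sequencers and read lengths are named without a statement per sample. The mouse and chromatin samples were not analysed here.

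Tests used edgeR 4.0.16 in R 4.3.3 on the counts: TMM scaling, filterByExpr by group, the quasi-likelihood F test with all groups of a set in 1 fit, and Benjamini-Hochberg adjustment over all genes tested, with a threshold of 0.05. Standard errors come from the F statistic. Residual degrees of freedom were 3 in each set and 5 in the joint fit. Total counts were between 21148477 and 70679258 per library. Exact binomial intervals (95%) and the floor of 3 counts cover counting error only. Genes whose normalised day 18 counts lay within 0.5 log2 in both sets, with at least 10 counts on average, are called counted alike. Alternatives used DESeq2 1.42.0 and limma 3.58.1. The other settings were RLE scaling, no filter on low counts, a fit of only the groups compared, genes counted alike, the table's day 18 counts, 1 MesoT day alone, a replicate block and leaving out each library. The edgeR fit was tested on simulated counts. The 10 members, the lists and the comparisons were chosen with earlier results of these data known. Every member is named. Of other genes, the rule takes the members' antisense or divergent neighbours, up to 4 called genes of each list by smallest p, and up to 3 genes per member by the lower of its 2 correlations. Single cell type markers named in the text, and PRRX1 and PRRX2, were chosen after their values were seen. Promoter windows and start distances are from RefSeq on GRCh38.p14 and were not used with the counts' build. Figures were drawn with matplotlib 3.10.9.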

Additional observations from a re-analysis of the deposited data

Results flagged for a closer look

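The difference between the 2 routes to MLC, each against MesoT day 18 of its own set of counts, passed the test of the difference itself for 2 factors. For HAND1 it was 5.31 ± 0.71 on the log2 scale (edgeR adjusted p = 0.00294): HAND1 rose by 4.07 in MLC over MesoT day 18, and MesoT-derived MLC gave -1.13 against day 18 of the table, which did not pass (adjusted p = 0.31). For FOXF2 it was 4.50 ± 0.73 (adjusted p = 0.00704), with 191 and 248 counts in MLC and 8 and 8 in MesoT-derived MLC. FOXF2 was not among the genes counted alike at day 18, since it had 8 or fewer counts there in each library, and in the second replicate the one-library files were lower than the table by a log2 difference of -0.89. The 2 day 18 samples enter that fit from both sets as if they were separate libraries, so its SEs and p-values are too small. In the joint fit, where no sample enters more than once but the set and the route cannot be told apart, the differences were 5.38 ± 0.59 for HAND1 and 3.85 ± 0.49 for FOXF2. MLC and MesoT-derived MLC were deposited in different sets, and depth differed as well, at 70679258 and 65709545 counts against 31433961 and 31435480. The part of depth in these differences was not tested.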

How the results depend on the processing

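Of 895 member results recomputed, 762 kept their direction and side of the threshold, 78 lost the call, 30 gained one and 25 changed sign. None of the 35 called member results changed sign in the alternatives run, and 10 kept their call in all of them. GATA4 in MesoT FCS against MesoT day 18 became -2.27 with limma voom, and NKX2-5 in smooth muscle against MesoT FCS became 0.053. Against day 18 alone, MesoT-derived MLC gave -0.35 for GATA4, -0.75 for FOXF1 and 0.085 for FOXF2. A replicate block turned GATA4 in MesoT FCS against MesoT day 18 to -0.14. The remaining sign changes came from leaving out 1 library. The ranges then were -1.55 to 1.30 for FOXF1 in MLC against MesoT day 18. In MesoT FCS against MesoT day 18 they were -0.15 to 0.50 for HAND2, -7.32 to 1.71 for GATA4 and -4.08 to 4.01 for NKX2-5, and for NKX2-5 in MLC against MesoT FCS -6.33 to 1.04. Smooth muscle gave -0.38 to 1.64 for ISL1 and -0.75 to 1.86 for NKX2-5 against MesoT day 18, and -3.14 to 4.11 for NKX2-5 against MesoT FCS. Day 22 against day 18 gave -0.16 to 0.38 for HAND2, -1.01 to 1.52 for ISL1 and -1.52 to 1.06 for NKX2-5. MesoT-derived MLC against MesoT gave -0.26 to 0.95 for GATA4, -0.41 to 0.60 for GATA5 and -0.50 to 1.16 for FOXF1, and MLC against MesoT-derived MLC -0.27 to 0.90 for FOXF1. The cause was not tested.

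The number of members called in MLC against MesoT day 18 was 1 among genes counted alike, where fewer genes are tested, and 1 to 5 without 1 library. In MesoT FCS against MesoT day 18 it was 5 with the table's day 18 counts, and in MLC against MesoT FCS 3 to 6 without 1 library. With only the groups compared, where 0 of all genes were called, it was 0 for smooth muscle against MesoT day 18 and 0 against MesoT FCS. Against MLC it was 9 in that setting, where 14132 of all genes were called. For MesoT-derived MLC against MesoT it was 0 with limma voom, against day 18 alone and against day 22 alone, and 0 to 1 without 1 column. For MLC against MesoT-derived MLC it was 3 among genes counted alike, 2 with the set as a term and 4 without any 1 library. The number of all genes called, 5666, 6301, 11272, 1998, 4123, 7916, 2219 and 10335 in the order in which the report counts members (leaving out day 22, with 0), ranged from 997 to 9237, 2783 to 12757, 4962 to 13182, 0 to 7935, 0 to 6412, 2505 to 14132, 0 to 4604 and 2383 to 12314. RLE scaling moved the median of all genes by -0.11 in MLC against MesoT-derived MLC and ended the call of GATA6 there (0.91, adjusted p = 0.0651). Same-numbered replicates correlated in their deviations across genes at 0.0666, 0.0730 and 0.0107 in the one-library files and at 0.557, -0.00768 and -0.0636 in the table. Same-numbered columns of MesoT day 18 and day 22 thus deviated together at 0.557, while no other pair of groups passed 0.0730. The numbers were therefore not used as pairs in the main fits. For day 18 and day 22 this leaves out a shared deviation, and MesoT-derived MLC against MesoT treats those columns as separate libraries. Day 22 against day 18 still had 0 genes called higher and 0 lower with a replicate block. With a replicate block, HAND2 in MLC against MesoT FCS was called (0.73, adjusted p = 0.0225), and 7 members were called there in place of 6. No block was fitted for the smooth muscle comparisons: the title of that sample gives no number, although its description ends in replicate 1. The alternatives without the smooth muscle library, and all those of MLC against MesoT-derived MLC, were chosen after seeing the data. Depth limits the levels that rest on few counts, such as HAND1, GATA5 and FOXF2 in MesoT FCS and NKX2-3 in every library. The floor of 3 counts was between 0.0397 and 0.168 CPM.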
